A study of Mus musculus with 5 samples.

Results

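The 41 genes described here encode the machinery of mitosis: G2/M cyclins and kinases, kinetochore and checkpoint proteins, spindle motors, condensin and other chromosome proteins, and the proteins that complete division. They were chosen by gene symbol for their known roles in cell division, not by a threshold on their values. Earlier results of these data were known when they were chosen. All 41 were found among the 24970 gene symbols of the count data, and all 41 passed the filter on low counts that 14779 genes passed. In bladder urothelium of Nicastrin knockout mice, 17 of the 41 were lower than in wild types, 1 was higher and 23 did not pass the test.

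RNA was sequenced from the urothelium of 5 mice aged 10 weeks. Both wild types (WT 1 and WT 2) were of strain C57Bl/6. The 3 knockouts (KO 1, KO 2 and KO 3) had the genotype Krt5CreERT2;Ncstnflox/flox, in which a tamoxifen-inducible Cre under control of Krt5, a keratin gene of basal cells, can delete floxed Ncstn. Ncstn encodes Nicastrin, a subunit of the gamma-secretase that cleaves Notch receptors. No strain beside the genotype is given for the knockouts, nor is the timing of induction or whether the wild types received the inducer. Effects of the deletion, the Cre, its induction and the strain therefore cannot be told apart.

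Cells build up the mitosis programme late in the cycle. The kinase Cdk1 with cyclins A and B starts mitosis, kinetochores tie chromosomes to spindle microtubules, and the anaphase-promoting complex then marks cyclin B and securin for destruction so that sister chromatids part. Most genes of the programme are silent in resting cells and share promoter elements through which the DREAM and MuvB complexes, B-Myb and FoxM1 act on them. The adult urothelium is known for very slow turnover, with few dividing cells.

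Counts assigned to genes ran from 12608836 in KO 3 to 27188499 in KO 1, so that 1 read was worth 0.0376 to 0.0779 CPM (counts divided by the TMM-scaled library size). Ncstn was at 144 and 130 CPM in the wild types and 114, 117 and 123 CPM in the knockouts (edgeR adjusted p = 0.133), and counts over the whole gene do not check the deletion. The summed levels of umbrella cell genes (8, 8445 to 14556 CPM) and basal genes (10, 3625 to 6091 CPM) were high in all 5 libraries. So was the sum of 12 fibroblast genes (9306 to 17702 CPM), while the 9 lymphocyte genes measured summed to 3.58 to 8.18 CPM. Most of the basal sum came from Krt5 and Krt15, while Krt14 was at 1.78 and 3.14 CPM in the wild types. By the design text every library is a separate mouse, and values are given in the order WT 1, WT 2, then KO 1, KO 2, KO 3.

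Across all tested genes, 10.0% were called lower and 9.64% higher in the knockouts (edgeR quasi-likelihood test, adjusted p below 0.05). Among the mitosis genes 41.5% were called lower (17) and 2.44% higher (1). Their median log2 fold change, knockout minus wild type, was -0.96, beside 0.01 over all tested genes, and 39 of 41 lay below 0. All 3 knockouts were below both wild types in 35 of the 41 genes (85.4%), a pattern found in 25.1% of all tested genes. All 3 were above both wild types in 1 gene, Foxm1, a pattern found in 25.9% of all tested genes. In bulk tissue fewer dividing cells and less of these RNAs per cell cannot be told apart.

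The summed level of the 41 genes was 249.8 CPM in WT 1 and 250.5 CPM in WT 2, and 177 CPM in KO 1, 154 CPM in KO 2 and 135 CPM in KO 3. The knockouts were thus at 70.9%, 61.8% and 54.1% of the wild-type mean, with a mean of 156 ± 21.0 CPM (SD, n = 3). The 3 most abundant genes, Smc4, Kif23 and Ncapd2, none of which passed the test, held 30.7% of the sum in the wild types and 40.8% in the knockouts. Over the other 38 genes the sum was 172 and 175 CPM in the wild types and 111, 89.1 and 76.9 CPM in the knockouts. The order of the knockouts recurred from gene to gene: KO 1 was the highest of the 3 in 33 mitosis genes (80.5%) and KO 3 the lowest in 29 (70.7%). Over all tested genes these shares were 31.7% and 37.7%. KO 1 was also the most deeply sequenced library and KO 3 the least, and the part of depth in this order was not tested.

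**Figure D1:**
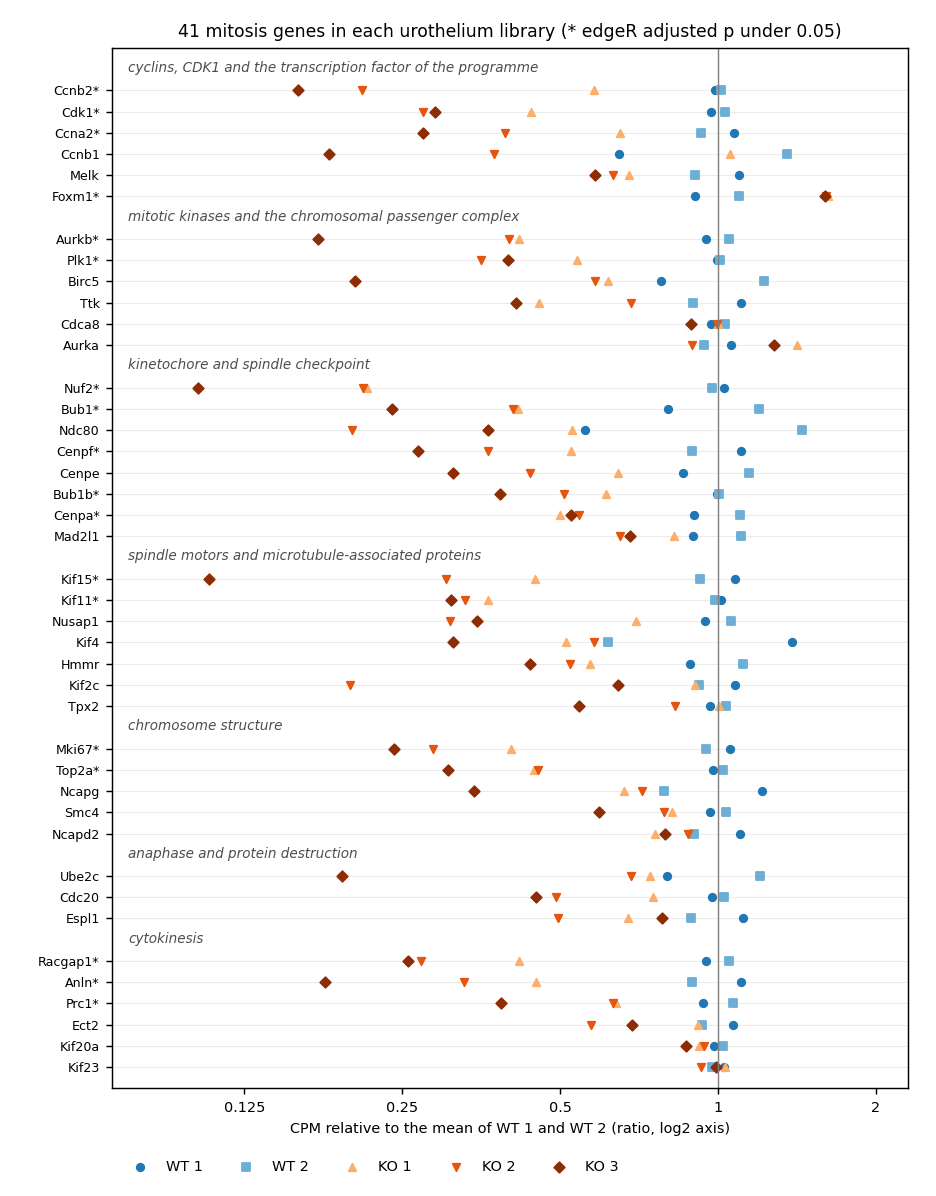
CPM of each mitosis gene in each library, divided by the mean of WT 1 and WT 2 (log2 axis), grouped by role; each point is 1 library and an asterisk marks an edgeR adjusted p below 0.05. In 35 of the 41 genes the 3 knockout points lie left of both wild-type points, and in 1 gene, Foxm1, they lie right of both.

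Promoters of this programme are known for a CCAAT box, bound by NF-Y, and for the cell cycle genes homology region (CHR), bound by DREAM and MuvB. RefSeq promoters (GRCm38.p6, 250 bases before to 50 bases from the start site) were matched for 35 of the 41 genes, 2 of them with 2 promoters. The letters TTTGAA or TTCGAA (CHR) on either strand were present in 30 of these 37 promoters (81.1%), against 19.2% of all 32851 promoters. CCAAT on either strand was present in 28 of 37 (75.7%), against 37.4% of all promoters, and both motifs in 26 (70.3%), against 7.52%. A CHR match within 50 bases of the start site was found in 27 of 37 mitosis promoters (73.0%) and in 5.31% of all promoters. TTCGAA reads the same on both strands, a CHR and a CCAAT match can share their end bases, and a match is not a binding site. Of the matched genes called lower, 14 of 15 held a CHR motif, and of the other matched genes 14 of 20 did, a difference that was not tested.

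The 4 sequences printed next run 5′ to 3′ on the gene's strand from 200 bases before to 20 bases from the start site, with every CHR and CCAAT match on either strand in capitals. Mki67, Top2a and Racgap1 are the 3 genes called lower with the smallest p that hold both motifs, and Kif23, added after its values were seen, holds both and had nearly the same level in both genotypes. They lie at chr7:135716360-135716579 (Mki67), chr11:99024170-99024389 (Top2a), chr15:99651637-99651856 (Racgap1) and chr9:61946780-61946999 (Kif23), all on the minus strand of GRCm38.p6.
Mki67: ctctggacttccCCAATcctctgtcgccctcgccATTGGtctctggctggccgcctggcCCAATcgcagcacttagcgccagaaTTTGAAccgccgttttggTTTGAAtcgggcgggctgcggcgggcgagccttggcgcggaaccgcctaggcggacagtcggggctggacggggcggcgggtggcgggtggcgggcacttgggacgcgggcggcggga
Top2a: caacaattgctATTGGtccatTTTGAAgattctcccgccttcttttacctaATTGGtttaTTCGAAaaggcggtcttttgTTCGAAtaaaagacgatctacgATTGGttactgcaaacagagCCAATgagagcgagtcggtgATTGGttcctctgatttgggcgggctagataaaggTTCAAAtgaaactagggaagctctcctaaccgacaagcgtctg
Racgap1: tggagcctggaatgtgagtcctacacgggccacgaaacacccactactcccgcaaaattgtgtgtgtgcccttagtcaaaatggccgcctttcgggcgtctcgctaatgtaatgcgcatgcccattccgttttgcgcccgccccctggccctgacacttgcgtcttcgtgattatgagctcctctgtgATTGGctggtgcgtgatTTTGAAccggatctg
Kif23: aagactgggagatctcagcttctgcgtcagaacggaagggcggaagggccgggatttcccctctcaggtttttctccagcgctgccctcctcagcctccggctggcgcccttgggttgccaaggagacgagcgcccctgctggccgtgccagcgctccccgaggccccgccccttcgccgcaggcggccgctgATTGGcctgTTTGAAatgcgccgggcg
The Top2a stretch holds 4 CHR and 5 CCAAT matches, the Mki67 stretch 2 and 3, and the Racgap1 and Kif23 stretches 1 of each, in the same order near the start site. Nuf2, the member with the largest fold change, held neither motif in its window.

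**Figure D2:**
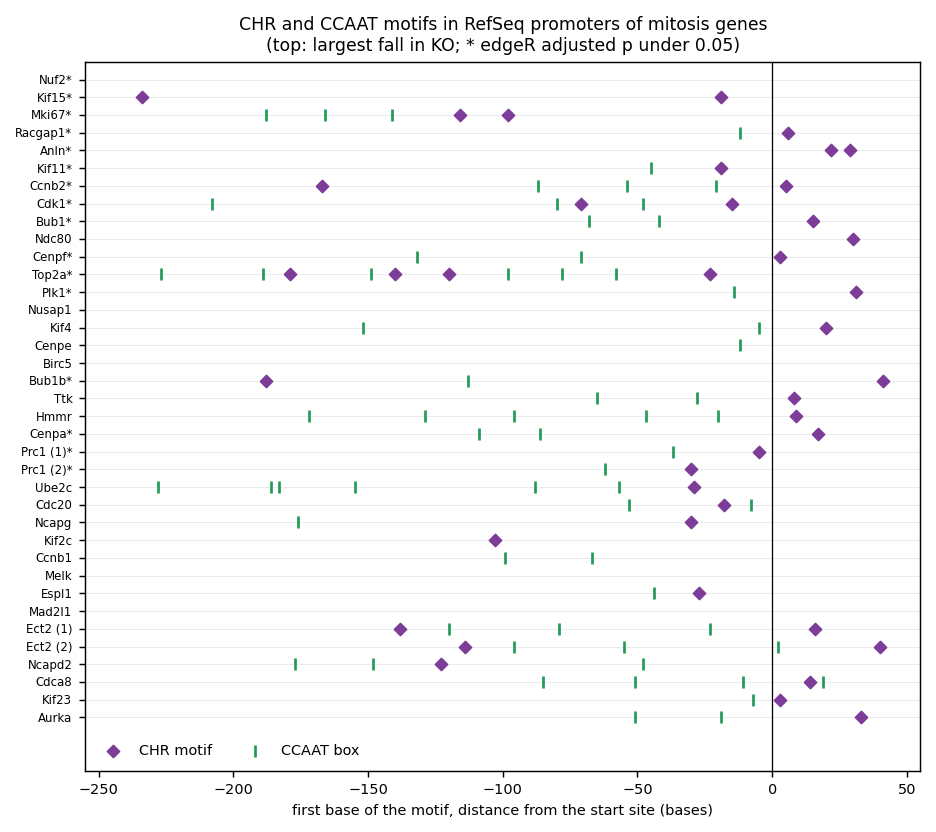
First base of each CHR motif (diamonds) and CCAAT box (ticks) in the 37 RefSeq promoters of 35 mitosis genes, as distance in bases from the start site, ordered from the largest fall in the knockouts (top) to the largest rise; an asterisk marks an edgeR adjusted p below 0.05. CHR motifs gather near the start site, within 50 bases in 27 of 37 promoters.

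Among the 6 genes of entry into mitosis, the cyclins Ccna2 and Ccnb2 and the kinase Cdk1 fell, Foxm1 rose, and Ccnb1 and Melk did not pass. Cdk1 (chr10:69335146-69352938, GRCm38), the kinase that drives mitosis, was at 3.40 and 3.62 CPM in the wild types and at 1.54, 0.962 and 1.01 CPM in the knockouts. The groups did not overlap, and Cdk1 fell 2.89-fold (log2 fold change -1.53 ± 0.31 SE, edgeR adjusted p = 0.00812). Its partner cyclin Ccnb2 was at 3.40 and 3.49 CPM in the wild types and at 2.00, 0.722 and 0.545 CPM in the knockouts. KO 1 lay nearest to the wild types and KO 2 and KO 3 much lower, and the fall passed (2.89-fold, edgeR adjusted p = 0.0370). Ccna2, the cyclin of S phase and early mitosis, went from 4.28 and 3.69 CPM to 2.60, 1.56 and 1.09 CPM (2.18-fold, edgeR adjusted p = 0.0434).

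Ccnb1, the other main B-type cyclin, was at 0.836 and 1.74 CPM in the wild types and at 1.36, 0.481 and 0.234 CPM in the knockouts. KO 1 lay between the wild types, the interval of the log2 fold change ran from -2.05 to 0.65 (95%), and 3 to 36 reads per library stood behind it. RefSeq also lists a pseudogene copy, Ccnb1-ps, with which Ccnb1 may share reads, so the level of Ccnb1 is uncertain. Foxm1 (chr6:128362967-128376146) encodes the transcription factor that activates many of the other genes. It was at 5.28 and 6.41 CPM in the wild types and at 9.45, 9.38 and 9.34 CPM in the knockouts. It rose 1.61-fold (log2 fold change 0.69 ± 0.17 SE, edgeR adjusted p = 0.0210), and the knockouts were nearly equal. The knockouts were also close to each other for Cenpa and Kif11, which fell, while Ccnb2 differed severalfold between the same libraries. The kinase gene Melk had a log2 fold change of -0.66, with all 3 knockouts below both wild types.

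Of the 6 genes of mitotic kinases and the chromosomal passenger complex, Plk1 and Aurkb fell and 4 did not pass. Plk1 (chr7:122159439-122169873), a kinase of centrosome maturation and mitotic exit, was at 7.78 and 7.88 CPM in the wild types and at 4.22, 2.77 and 3.11 CPM in the knockouts. Every knockout was well below the wild types, which were nearly equal (2.28-fold lower, edgeR adjusted p = 0.00586). Aurkb, the kinase that corrects faulty kinetochore attachments, went from 2.14 and 2.37 CPM to 0.941, 0.902 and 0.389 CPM (2.87-fold lower, edgeR adjusted p = 0.0219). Its complex partner Birc5 (survivin) had a log2 fold change of -1.01 with an interval from -1.94 to -0.08. For Cdca8 (borealin), also of the complex, it was -0.05 with an interval from -0.57 to 0.47. The intervals overlapped, and the difference between Birc5 and Cdca8 was not tested. Cdca8 was at 3.40 and 3.62 CPM in the wild types and at 3.50, 3.49 and 3.11 CPM in the knockouts, so that the groups overlapped. Aurka, the spindle pole kinase, was at 3.29 and 2.93 CPM in the wild types and at 4.40, 2.77 and 3.97 CPM in the knockouts, and is the 1 gene besides Foxm1 with a fold change above 0 (log2 0.26, interval -0.35 to 0.87). The checkpoint kinase gene Ttk was also lower in every knockout, at a log2 fold change of -0.96, and did not pass.

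Kinetochore and spindle checkpoint genes had all 8 members below 0 and all 8 without overlap between genotypes, and 5 of them fell. Their summed level was 33.6 and 37.3 CPM in the wild types and 20.9, 16.7 and 14.6 CPM in the knockouts. Nuf2 (chr1:169497934-169531464), a subunit of the Ndc80 complex that grips microtubules, had the largest fold change of the 41 genes. It was at 2.35 and 2.23 CPM in the wild types and at 0.489, 0.481 and 0.234 CPM in the knockouts, with 45 and 32 reads against 13, 8 and 3. The groups were far apart, at 5.38-fold (log2 fold change -2.43 ± 0.39 SE, edgeR adjusted p = 0.00263). Cenpf, a large kinetochore protein of G2 and mitosis, went from 8.04 and 6.48 CPM to 3.80, 2.65 and 1.95 CPM (2.52-fold, edgeR adjusted p = 0.00858). The checkpoint kinases Bub1 and Bub1b, which hold back anaphase, also fell, the first 2.68-fold and the second 1.96-fold (edgeR adjusted p = 0.0346 and 0.0143). Bub1b was at 7.68 and 7.74 CPM in the wild types and at 4.71, 3.91 and 2.96 CPM in the knockouts, and Bub1 at 1.31 and 1.95 CPM and at 0.678, 0.662 and 0.389 CPM.

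Cenpa encodes the histone H3 variant that marks centromeres. It was at 4.28 and 5.23 CPM in the wild types and at 2.37, 2.59 and 2.49 CPM in the knockouts. The knockouts were close to each other, and the fall was 1.91-fold (edgeR adjusted p = 0.0225). Ndc80, Cenpe and Mad2l1 did not pass, with log2 fold changes of -1.34, -1.03 and -0.46. Ndc80 encodes the partner of Nuf2, Cenpe a kinetochore motor and Mad2l1 the inhibitor of the anaphase-promoting complex. For Ndc80 the wild types themselves differed, at 0.836 and 2.16 CPM, and the knockouts were at 0.790, 0.301 and 0.545 CPM.

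Of 7 spindle motor and microtubule-associated genes, Kif11 and Kif15 fell and 5 did not pass. Both encode plus-end motors that push spindle poles apart. Kif11 (chr19:37376403-37421859) was at 4.07 and 3.97 CPM in the wild types and at 1.47, 1.32 and 1.25 CPM in the knockouts. The spread within each genotype was small beside the 2.95-fold fall (log2 fold change -1.56 ± 0.27 SE, edgeR adjusted p = 0.00351). Kif15 went from 2.35 and 2.02 CPM to 0.979, 0.662 and 0.234 CPM, the last resting on 3 reads (3.21-fold, edgeR adjusted p = 0.0259). Nusap1, which bundles spindle microtubules, missed the threshold (edgeR adjusted p = 0.0518) at 4.23 and 4.74 CPM against 3.12, 1.38 and 1.56 CPM. Its groups did not overlap, and KO 1 stood apart from KO 2 and KO 3. Hmmr, a spindle pole protein, was at 2.04 and 2.58 CPM against 1.32, 1.20 and 1.01 CPM (edgeR adjusted p = 0.0648). Kif4, a chromosome-arm motor, and Kif2c, a microtubule depolymerase, had log2 fold changes of -1.08 and -0.72, and Tpx2, which activates Aurora A, one of -0.30. KO 1 lay within the wild-type range for Tpx2.

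Among 5 genes of chromosome structure, Mki67 and Top2a fell and the condensin genes Smc4, Ncapg and Ncapd2 did not pass. Mki67 (chr7:135689784-135716361) encodes Ki-67, the coat of mitotic chromosomes and the usual marker of cycling cells. It was at 18.4 and 16.5 CPM in the wild types and at 7.04, 4.99 and 4.20 CPM in the knockouts. The genotypes were well apart, and Mki67 fell 3.15-fold (log2 fold change -1.66 ± 0.20 SE, interval -2.11 to -1.20, edgeR adjusted p = 0.000670). Top2a (chr11:98992943-99024189), the topoisomerase that untangles sister chromatids, was at 15.5 and 16.1 CPM in the wild types and at 7.04, 7.16 and 4.83 CPM in the knockouts. Its fall was 2.45-fold (log2 fold change -1.30 ± 0.18 SE, edgeR adjusted p = 0.00137). These are the smallest adjusted p values of the 41 genes. Their promoters were picked for printing by p and by holding both motifs, so their matches cannot be set against the size of p.

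Smc4, the ATPase shared by both condensins, had the highest level per length of the 41 genes, at 6.58 CPM per kilobase of exon in the wild types. It was at 33.1 and 35.5 CPM in the wild types and at 27.9, 27.0 and 20.3 CPM in the knockouts. The groups did not overlap and the difference missed the threshold (log2 fold change -0.44 ± 0.14 SE, edgeR adjusted p = 0.0526). Ncapd2, a regulatory subunit of condensin I, was at 21.2 and 17.2 CPM against 14.6, 16.8 and 15.2 CPM, and its interval ran from -0.62 to 0.00. Ncapg, another subunit of condensin I, had a log2 fold change of -0.77.

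The 3 genes of anaphase and protein destruction were each below the wild types in all knockouts, and none passed the test. Cdc20, the activator of the anaphase-promoting complex, was at 3.71 and 3.90 CPM in the wild types and at 2.86, 1.86 and 1.71 CPM in the knockouts (log2 fold change -0.78, interval -1.43 to -0.14). Espl1, the separase that cuts cohesin, and Ube2c, the ubiquitin-conjugating enzyme of the complex, had log2 fold changes of -0.63 and -0.80. For Ube2c the interval, from -1.83 to 0.24, included 0.

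Of 6 cytokinesis genes, Racgap1, Anln and Prc1 fell, and Ect2, Kif20a and Kif23 did not pass. Racgap1 (chr15:99620496-99651656), which with Kif23 forms the centralspindlin complex of the midzone, was at 5.48 and 6.06 CPM in the wild types and at 2.41, 1.56 and 1.48 CPM in the knockouts. All knockouts were far below both wild types (3.07-fold lower, edgeR adjusted p = 0.00341). Its complex partner Kif23 was at 23.9 and 22.6 CPM in the wild types and at 24.0, 21.5 and 23.0 CPM in the knockouts. The groups overlapped fully, and the interval of the log2 fold change was narrow, from -0.28 to 0.23. The wild-type level per kilobase of exon was 2.94 CPM for Kif23 and 0.816 CPM for Racgap1, and in the knockouts 2.89 and 0.257 CPM.

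Anln, which encodes the scaffold protein anillin of the contractile ring, went from 8.72 and 7.04 CPM to 3.54, 2.59 and 1.40 CPM (3.01-fold lower, edgeR adjusted p = 0.00638). Prc1, which bundles midzone microtubules, went from 6.79 and 7.74 CPM to 4.63, 4.57 and 2.80 CPM (1.78-fold lower, edgeR adjusted p = 0.0358). Ect2, the exchange factor for RhoA, had a log2 fold change of -0.44, with KO 1 at 2.60 CPM just below WT 2 at 2.65 CPM. Kif20a, a motor of the midzone, was at 5.90 and 6.13 CPM in the wild types and at 5.53, 5.65 and 5.22 CPM in the knockouts (log2 fold change -0.13, interval -0.55 to 0.28). It shares 1271 exon bases with Cdc23 on the other strand, and Cdc23 was at 49.1 to 53.8 CPM, so the level of Kif20a is uncertain.

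**Figure D3:**
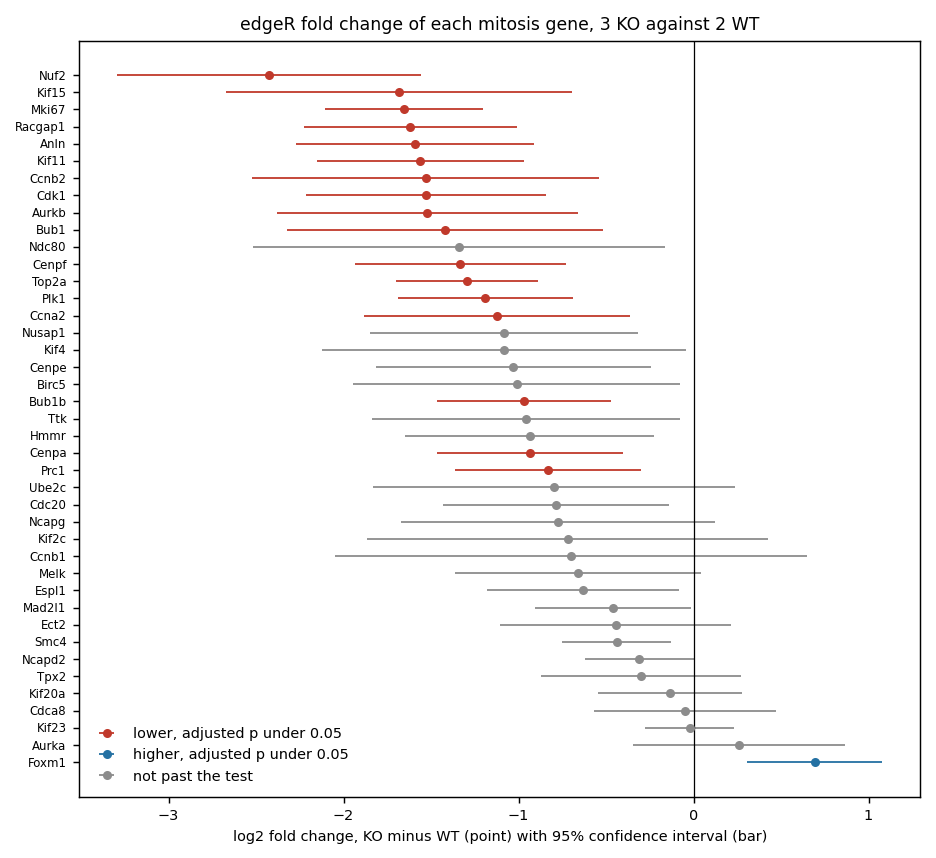
Log2 fold change of each mitosis gene, knockout minus wild type, with its 95% confidence interval from the edgeR fit (3 KO against 2 WT), ordered by size and coloured by the call. The 17 genes called lower run from Nuf2 at -2.43 to Prc1 at -0.83, Foxm1 alone is called higher, and intervals are widest for genes of few reads such as Ccnb1.

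Levels per length ranged from 0.198 CPM per kilobase of exon for Kif15 to 6.58 for Smc4 in the wild types, followed downward from Smc4 by Plk1 (3.56), Ncapd2 (3.06), Kif23 (2.94), Ccnb2 (2.25) and Cdc20 (2.04). Of these 6, Plk1 and Ccnb2 fell. In the annotation 10 of the 41 genes share exon bases with a gene on the other strand, among them the called genes Ccna2, Plk1 and Prc1, and the strand setting of the counting is not given. Of the 31 genes without such bases, 14 were called lower and 1 higher, with a median log2 fold change of -0.97.

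The calls depended on the wild types. Without WT 1, 3 mitosis genes were called lower, Mki67, Top2a and Racgap1, and without WT 2 there were 8, these 3 with Plk1, Nuf2, Cenpf, Kif11 and Anln. Over all tested genes the shares called lower were then 2.51% and 4.87%. Foxm1 lost its call when any library but KO 3 was left out (edgeR adjusted p up to 0.199). The median log2 fold change of the 41 genes was -1.08 without WT 1 and -0.85 without WT 2. Both wild types held a larger share of precursor ribosomal RNA (Rn45s) than any knockout, with 7.84% of gene counts in WT 1 and 3.23% in WT 2 against 1.53%, 1.14% and 0.608%. The nuclear RNA Malat1 also took a larger share in the wild types, at 0.390% and 0.281% against 0.0658% to 0.0779% in the knockouts. With Rn45s, Malat1 and Lars2 left out of the counts, 19 mitosis genes were called lower and 1 higher, at a median log2 fold change of -0.97. Whether RNA quality beyond the reads of these genes has a part in the result was not tested.

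Of 88 further mitosis genes 84 were tested, of which 16 were lower (19.0%), 2 were higher and 66 did not pass, with a median log2 fold change of -0.39. Pttg1 (chr11:43420250-43426251), which encodes securin, the inhibitor of separase, was at 38.2 and 45.0 CPM in the wild types and at 2.48, 1.44 and 2.18 CPM in the knockouts. This 19.9-fold fall (edgeR adjusted p = 1.49e-06) was larger than that of any of the 41 genes, while separase itself (Espl1) did not pass. Here too, and for Mcm6 among the S phase genes, strain background and the deletion cannot be told apart. The mitotic kinase gene Pbk fell 8.01-fold and Iqgap3, a scaffold protein gene, 5.26-fold. In the knockouts Pbk had 13, 3 and 5 reads and Iqgap3 20, 14 and 2, so the size of these falls is uncertain. Mastl, the kinase that restrains the phosphatase PP2A in mitosis, fell 2.58-fold, and Ncapg2, a subunit of condensin II, 2.22-fold. Spc24, a further subunit of the Ndc80 complex, fell 4.44-fold (18, 3 and 3 reads in the knockouts), with Ckap2l and Shcbp1 also lower. Both genes that rose, named after their values were seen, were Mad1l1, which recruits Mad2 to kinetochores (1.48-fold), and Fam83d, a spindle protein gene (1.93-fold). The calls in this list also depended on the wild types: without either one, the share called lower was no higher than over all tested genes. The median log2 fold change of the list was -0.35 without WT 1 and -0.44 without WT 2. Mad1l1 and Fam83d lost their calls without KO 2, and 1 of them lost it without KO 1. Their calls also depended on the wild types.

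The 15 genes of the anaphase-promoting complex, its activator Fzr1 included, gave no call in the edgeR test. Of these, 1 had an unadjusted edgeR p below 0.05, beside 5145 of all 14779 tested genes. No alternative, including DESeq2 and limma-voom, called any of the 15. Their summed level was 1039 and 1098 CPM in the wild types and 1088, 1122 and 1075 CPM in the knockouts, and Anapc2 and Anapc1, with the smallest p, had log2 fold changes of 0.23 and -0.18. S phase genes, which act before mitosis, were lower in 8 of 36 cases (22.2%) and higher in 0, with a median log2 fold change of -0.33. DESeq2 and limma-voom also called 0 of them higher, and edgeR with the replicate block called 1. Of the 36, 14 had an unadjusted edgeR p below 0.05 in either direction, a share near that of all tested genes (5145 of 14779). Mcm6 (chr1:128331590-128359664), a subunit of the replicative helicase, was at 27.5 and 27.8 CPM in the wild types and at 5.35, 5.29 and 5.37 CPM in the knockouts. It fell 5.17-fold with hardly any spread within either genotype. Clspn, an adaptor of the replication checkpoint, fell 4.80-fold (9, 5 and 7 reads in the knockouts), and Uhrf1 and Pole fell 2.28-fold and 2.15-fold. Fewer S phase genes were called lower without WT 1 or without WT 2, as was so over all tested genes.

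Among 25 regulators of the programme, E2f1 and E2f7 fell, Trp53 and E2f4 rose, and 21 did not pass. These shares were no higher than the 10.0% lower and 9.64% higher of all tested genes. E2f1, an activator of S phase genes, was at 5.85 and 5.79 CPM in the wild types and at 2.22, 2.95 and 3.74 CPM in the knockouts (edgeR adjusted p = 0.0221). The repressor gene E2f7 fell 3.83-fold (7, 12 and 3 reads in the knockouts). Trp53, which encodes p53, was at 54.4 and 55.7 CPM against 76.1, 77.3 and 71.9 CPM (1.37-fold higher, edgeR adjusted p = 0.00847), and E2f4, the E2F of the DREAM complex, rose 1.33-fold (edgeR adjusted p = 0.0180). Mybl2, which encodes B-Myb, and Cdkn1a, which encodes the inhibitor p21 that p53 activates, did not pass, at log2 fold changes of -0.58 and -0.20. Without WT 1 0 of the 25 were called, and without WT 2, KO 1 or KO 2 the higher calls fell to 1, with 0, 1 and 2 lower.

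Markers of the cell types in the dissected layer were read in the same libraries, beside the 10.0% lower and 9.64% higher of all tested genes. Fibroblast genes were lower in 11 of 12 cases, with summed levels of 17702 and 15590 CPM in the wild types and 9306, 10817 and 10985 CPM in the knockouts. Endothelial genes were lower in 4 of 10 cases, with 594.6 to 644.4 CPM in the wild types and 446.5 to 543.6 CPM in the knockouts. Umbrella cell genes were higher in 7 of 8 cases (8445 to 9169 CPM against 13245 to 14556 CPM), and basal genes were higher in 3 and lower in 2 of 9 tested. The basal sum was 3757 and 4521 CPM in the wild types and 5322, 6091 and 3625 CPM in the knockouts. Most of it came from Krt5 and Krt15, neither of which passed. Krt14, among the 3 higher, went from 1.78 and 3.14 CPM to 86.35, 117 and 31.2 CPM (32.9-fold, edgeR adjusted p = 0.000469). KO 3, the lowest in mitosis genes, was the lowest knockout in the basal, umbrella cell and smooth muscle sums. The basal sum was highest in KO 2 and the mitosis sum in KO 1. Macrophage genes summed to 223 to 225 CPM in the wild types and 194 to 288 CPM in the knockouts, with 1 of 10 higher and 1 lower, and 1 of 8 smooth muscle genes was lower, shares near those of all tested genes. The mean of the knockouts over that of the wild types was 0.62 for the fibroblast sum and 0.62 for the mitosis sum. Most of the fibroblast sum came from Col1a1, Col1a2, Col3a1 and Dcn. The log2 fold changes of the 12 fibroblast genes ran from -1.59 for Lum to 0.86 for Thy1, which did not pass. Among the knockouts the fibroblast sum was lowest in KO 1, where the mitosis sum was highest. The part of these cell types in the levels of mitosis genes was not tested.

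**Figure D4:**
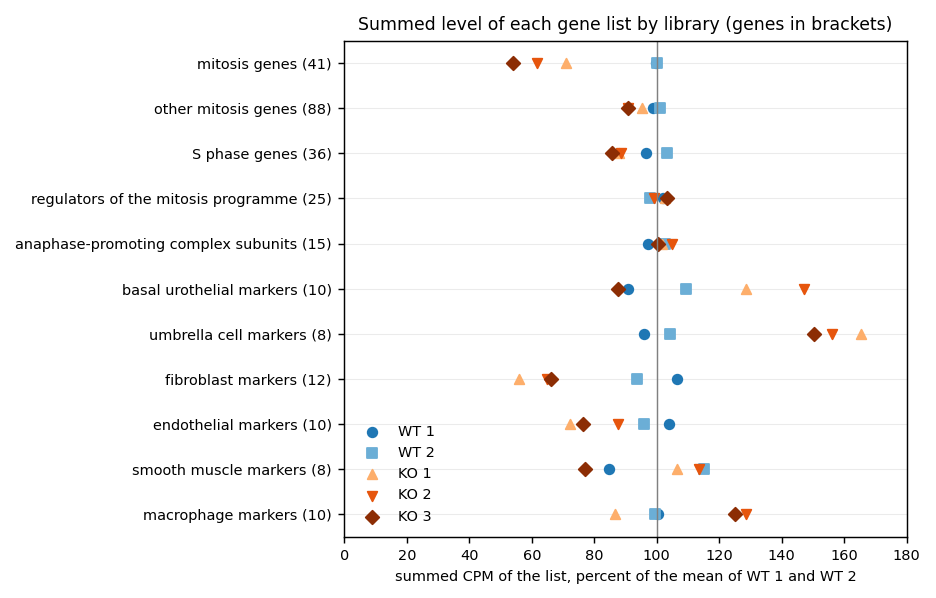
Summed CPM of each gene list in each library as a percentage of the mean of WT 1 and WT 2; each point is 1 library and the number of genes is in brackets. The 41 mitosis genes lie at 54.1% to 70.9% in the knockouts, fibroblast genes at 55.9% to 65.99%, umbrella cell genes at 150.4% to 165.3%, and the anaphase-promoting complex at 100.5% to 105%.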

How the data were processed

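The submitters' processing notes name the aligner HISAT2 (version 2.1.0), the counter HTSeq (version 0.11.1), the package DESeq2 and the build mm10. Neither annotation nor strand setting is stated in the sources used here. The deposited values are raw read counts per gene symbol, 1 file per library. After 5 summary entries of the counter were set aside, 24970 genes remained, which held 49.3% to 60.6% of tallied reads. Genes were filtered with filterByExpr (minimum count 10, total 15), scaled with TMM and tested with edgeR's quasi-likelihood fit, adjusted over all 14779 tested genes at 0.05. On simulated data with known changes this test recovered nearly all of the largest and fewer of the smallest, and the share of false calls was above the level the threshold aims at. Versions were 4.0.16 for edgeR, 3.58.1 for limma, 1.42.0 for DESeq2 and 4.3.3 for R. SE and 95% intervals come from that fit. Positions and exon lengths are from GENCODE vM21 (GRCm38), which matched all 41 genes.

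The 41 genes and every other list were chosen with earlier results of these data known. All 41 could be named; of the other lists, the 8, 5, 4 and 2 genes with the smallest p (mitosis, S phase, regulators, anaphase-promoting complex). Further genes named from those lists were chosen after their values were seen. One S phase gene the rule names is not reported here. Alternatives were other scalings, filters, tools, a replicate block, leaving out each library, and leaving out Rn45s, Malat1 and Lars2. Chi-square per degree of freedom between replicates was 9.26 to 36.3, so mice differed by more than counting error.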

Additional observations from a re-analysis of the deposited data

How the results depend on the processing

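Of 15 alternatives, 10 kept all libraries, and under these 17 to 22 mitosis genes were called lower and 1 higher. In 1 of the 10, the replicate block, only KO 3 carried number 3, so KO 3 added nothing to the estimated fold changes. With the replicate block 19 were lower and 1 higher, as were 21 and 4 other mitosis genes, 10 and 1 S phase genes, 3 and 2 regulators, and 2426 and 2211 of all genes. The correlation of deviations from the genotype mean was -0.055 for number 1 and 0.052 for number 2. With 2 wild types their deviations mirror each other, so these values cannot show whether the numbers pair the libraries. The replicate block is no test of the pairing. Leaving out single libraries gave 3 to 19 mitosis genes lower and 0 to 1 higher, 2 to 19 and 0 to 3 other mitosis genes, 1 to 10 S phase genes lower, and 0 to 2 regulators in either direction. Over all genes it gave 375 to 2246 lower and 340 to 1743 higher. Without KO 1 17 mitosis genes were lower, 14 of them among the 17 called with all libraries. Where 1 wild type was left out, the lone one was assumed to vary like the knockouts; the cause of the other changes was not tested. The summed mitosis level, knockout over wild type, was 0.623 (0.579 to 0.656 without 1 library). Mitosis genes with all knockouts below all wild types numbered 33 to 35 under other scalings and filters and 35 to 38 without 1 library. Those with all knockouts above all wild types numbered 1 to 2. Apart from small shifts in scaling, fewer libraries only make this condition easier to meet. The counts without 1 library therefore cannot show that the pattern is stable. Of 18 called mitosis genes, 3 kept the call under all 15 alternatives, 14 lost it only where a library was left out, and Bub1 also in DESeq2 (adjusted p = 0.0785, range over alternatives 0.0207 to 0.220). Nusap1 and Smc4 passed under 11 and 7 alternatives. Apart from Kif23, the 40 other genes kept their direction under every alternative that tested them (the filter of CPM above 1 in 2 libraries left out Ndc80 and Kif4). Depth limits genes of few reads: the floor of 3 reads is 0.113 to 0.234 CPM.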

Other observations

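Pbk and Esco2 are neighbours on chromosome 14 (GRCm38, 65805837 to 65817822 and 65819038 to 65833994), and both were lower in the knockouts. Esco2, which encodes an acetyltransferase for sister chromatid cohesion, was at 1.15 and 1.67 CPM in the wild types and at 0.602, 0.241 and 0.156 CPM in the knockouts (3.67-fold, edgeR adjusted p = 0.0311). The Esco2 values of the knockouts rest on 16, 4 and 2 reads, the last below the floor of 3 reads. Pbk was at 2.35 and 3.69 CPM against 0.489, 0.180 and 0.389 CPM (8.01-fold, edgeR adjusted p = 0.00152), with 13, 3 and 5 reads in the knockouts. Esco2 and the pair were singled out after their values were seen.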
